A study of Mus musculus with 4 samples.

Results

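The replication-dependent histone genes supply the histone proteins that package newly copied DNA. They were taken here as all protein-coding genes of the mouse annotation whose symbol begins with Hist1h, Hist2h, Hist3h or Hist4h. This gave 67 genes of 34547 in the tables: 6 for the linker histone H1, 18 for H2A, 18 for H2B, 12 for H3 and 13 for H4. They lie in clusters, with 54 genes in Hist1 on chromosome 13, 10 in Hist2 on chromosome 3, 2 in Hist3 on chromosome 11 and 1, Hist4h4, on chromosome 6 (GRCm38). A further 3 genes with such a symbol are annotated as pseudogenes and were left out.

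RNA was sequenced from cartilage of C57BL/6 mouse forelimbs, in which growth plate cells stop dividing and enlarge. Hypertrophic chondrocytes (HC), replicates 3 and 4, came from embryos at E15.5, and proliferating chondrocytes (PC), replicates 1 and 2, from embryos at E14.5. All 4 libraries were made from 10 ng of RNA of cells cut from cryosections by laser, with a library kit meant for degraded material. Age and cell state cannot be told apart in this design, and nothing says that the replicates are separate animals, so p-values measure only the spread between these samples, which may be technical.

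Most histone mRNAs of these clusters lack a poly(A) tail. They end in a short stem-loop that is bound by the protein Slbp, are made in S phase and are degraded when DNA synthesis stops. In the growth plate, proliferating chondrocytes pass through the cell cycle, while hypertrophic chondrocytes have left it. The members come in many copies: all 13 H4 genes encode 1 identical protein in the annotation, 9 of the 18 H2A genes share another, and 7 of the 12 H3 genes share 1 as well.

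The stem-loop is shown first, because it is what sets these mRNAs apart from others. Each sequence runs 5′ to 3′ in DNA letters with up to 5 bases on either side. The 16 bases of stem and loop are in capitals: a stem of 6 pairs and a loop of 4 bases.
Hist1h1e: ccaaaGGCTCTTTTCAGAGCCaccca
Hist1h2ao: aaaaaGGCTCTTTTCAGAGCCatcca
Hist1h2bb: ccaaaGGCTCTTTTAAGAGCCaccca
Hist1h3b: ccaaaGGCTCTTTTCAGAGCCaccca
Hist1h4b: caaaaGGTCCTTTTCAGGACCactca
Hist1h4d: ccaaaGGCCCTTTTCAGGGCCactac
Hist4h4: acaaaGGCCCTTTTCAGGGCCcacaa

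An annotated transcript with such a stem-loop was found for 44 of the 67 members, against 85 of 21760 other protein-coding genes (0.39%). In all, 6 forms occurred. The form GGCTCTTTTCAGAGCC was the most frequent, with 26 members of the H1, H2A, H2B and H3 classes. The form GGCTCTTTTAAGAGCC was found in 6 members of the H1, H2B and H3 classes. The 11 H4 members used other stems: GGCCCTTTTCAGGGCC in 7, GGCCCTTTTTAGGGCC in 2 and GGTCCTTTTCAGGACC in 2. The search accepted only stems with all 6 pairs that begin with GG and loops that begin with TT, so other stem-loops would be missed. In the remaining members the annotated transcript holds none of this kind, and 17 members are annotated with fewer than 10 bases after the stop codon.

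Promoters of 5 members are shown to compare the classes, taken from RefSeq (GRCm38.p6) as the 250 bases before and the 50 after the annotated start. The genes are an H1 gene, an H2B gene, an H3 gene and an H4 gene whose transcripts were lower in HC, and Hist4h4, which was not. Capitals mark these letters on either strand: CCAAT (the CCAAT box), TATAAA (a form of the TATA box), ATTTGCAT (an octamer), AAACACA (known as the H1 box) and TTTNNCGC (as in E2F sites).
Hist1h1e, chr13:23622509-23622808, minus strand: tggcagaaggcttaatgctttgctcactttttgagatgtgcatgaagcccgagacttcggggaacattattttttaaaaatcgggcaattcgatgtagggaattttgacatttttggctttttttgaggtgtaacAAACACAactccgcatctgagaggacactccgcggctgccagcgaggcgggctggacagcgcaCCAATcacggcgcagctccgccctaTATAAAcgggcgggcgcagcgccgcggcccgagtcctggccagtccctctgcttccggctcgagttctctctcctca
Hist1h2bb, chr13:23746484-23746783, plus strand: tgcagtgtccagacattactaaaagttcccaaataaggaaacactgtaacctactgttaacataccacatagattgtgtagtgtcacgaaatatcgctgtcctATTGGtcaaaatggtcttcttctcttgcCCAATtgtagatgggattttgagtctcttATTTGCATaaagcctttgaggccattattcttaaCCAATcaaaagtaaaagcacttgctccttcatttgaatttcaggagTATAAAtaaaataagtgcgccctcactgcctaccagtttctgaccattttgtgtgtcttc
Hist2h3b, chr3:96268404-96268703, plus strand: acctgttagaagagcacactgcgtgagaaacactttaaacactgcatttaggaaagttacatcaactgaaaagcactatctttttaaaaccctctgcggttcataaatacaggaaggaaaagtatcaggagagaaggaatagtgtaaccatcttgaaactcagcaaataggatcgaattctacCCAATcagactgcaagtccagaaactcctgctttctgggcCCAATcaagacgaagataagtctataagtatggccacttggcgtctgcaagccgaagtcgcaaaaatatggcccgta
Hist1h4m, chr13:21811496-21811795, plus strand: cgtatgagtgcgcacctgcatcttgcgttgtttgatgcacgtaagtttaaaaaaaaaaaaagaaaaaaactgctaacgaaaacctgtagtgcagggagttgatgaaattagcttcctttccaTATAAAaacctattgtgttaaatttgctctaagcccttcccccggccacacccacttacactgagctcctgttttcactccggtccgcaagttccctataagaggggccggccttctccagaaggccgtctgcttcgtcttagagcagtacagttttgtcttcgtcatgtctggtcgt
Hist4h4, chr6:136804382-136804681, minus strand: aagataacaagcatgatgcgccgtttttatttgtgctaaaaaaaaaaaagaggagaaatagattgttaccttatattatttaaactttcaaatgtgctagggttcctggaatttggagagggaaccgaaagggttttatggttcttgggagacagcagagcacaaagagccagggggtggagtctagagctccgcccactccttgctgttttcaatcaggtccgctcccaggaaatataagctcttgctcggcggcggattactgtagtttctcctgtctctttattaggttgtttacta

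Promoters of 62 members were in that table. CCAAT stood in all promoters of the H1, H2A, H2B and H3 classes that were matched (6, 18, 16 and 10), in 3 of 12 H4 promoters and in 37.9% of all 27025 promoters. TATAAA stood in 56.5% of the members' promoters, against 14.2% of all. The octamer, which the factor Pou2f1 (Oct-1) binds, stood in 7 of 18 H2A and 6 of 16 H2B promoters, in none of the H1, H3 and H4 promoters, and in 1.8% of all. AAACACA stood in 5 of 6 H1 promoters and in 7.1% of all. TTTNNCGC stood in 8 of 18 H2A and 8 of 16 H2B promoters and in 5.3% of all. The H2A and H2B counts are not independent, because many of these genes are divergent neighbours that share 1 stretch of DNA. The promoter of Hist4h4 held none of the marked letters, and neither did that of Hist1h4b, an H4 gene that fell. A match is a description of letters and not of a bound site.

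Libraries held 15246529 and 21866266 estimated counts in HC, and 30373440 and 36644496 in PC. Col10a1, the collagen of hypertrophic cartilage, had 17803 and 26922 CPM (counts scaled to a common library total) in HC, against 109 and 876 in PC. Of 12 chondrocyte state markers tested, 2 passed, both upward in HC. Both HC libraries lay above both PC libraries for 7 of the 12 and below them for 4. Of all genes tested, 33.2% lay below in this way. Summed markers of other cell types were also higher in HC. Erythroid markers summed to 345 and 325 CPM in HC and to 37 and 54.0 in PC, with Hbb-bh1 at 0 in all libraries and Gata1 at 0 in both HC libraries. Macrophage and osteoclast markers summed to 374 and 181 CPM in HC and to 21.8 and 31.4 in PC, with C1qa at 0 in both HC libraries. Endothelial markers summed to 297 and 172 CPM in HC and to 43.8 and 35.3 in PC, and muscle markers to 598 and 139 CPM in HC and to 35.6 and 52.5 in PC, with Myod1 and Myf5 at 0 in both HC libraries. Perichondrium and osteoblast markers summed to 13718 and 4871 CPM in HC and to 1222 and 1661 in PC, most of it Col1a1. Of these 5 lists of other cell types, 4 of 11, 3 of 12, 3 of 10, 1 of 11 and 2 of 11 genes tested passed, all upward in HC. Of all genes tested, 2.75% rose. Their part in the histone results was not tested.

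Histone transcripts as a whole were lower in HC. The 67 members summed to 1059 and 800.0 CPM in HC, against 7065 and 3810 in PC. As a share of all estimated counts, this was 0.0859% and 0.0816% in HC and 0.805% and 0.403% in PC. The groups did not overlap, and the lower PC library stood 3.60-fold above the higher HC library. PC replicate 1 was 1.85-fold above PC replicate 2. Per length, the members summed to 1802 and 2113 TPM (counts per transcript length, scaled to a common total) in HC, against 26922 and 12799 in PC. In bulk samples, fewer cells of a type and less RNA per cell cannot be told apart.

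Every class shared this direction. H1, which binds the linker DNA between nucleosomes, summed to 124 and 116 CPM in HC, against 878 and 409 in PC. H2A summed to 492 and 267 CPM in HC, against 2524 and 1737 in PC. H2B, its partner in the nucleosome, summed to 171 and 98.2 CPM in HC, against 570.1 and 367 in PC. Both HC libraries lay below both PC libraries in all 3 of these classes. H3 summed to 153 and 172 CPM in HC, against 2155 and 826 in PC. H4, its partner, summed to 119.6 and 148 CPM in HC, against 939 and 471 in PC. H3 and H4 did not overlap between groups either, and PC replicate 1 was the highest library in all 5 classes.

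On the log2 scale, the difference between HC and PC in summed CPM was -2.33 for H1, -2.53 for H2A, -1.82 for H2B, -3.04 for H3 and -2.32 for H4. The replicate SD on that scale was 0.55, 0.52, 0.51, 0.70 and 0.52 in the same order (n = 2 each), so each difference was larger than the spread between replicates. These sums have no test, since the members were chosen with earlier results known. Without PC replicate 1 the differences shrank, to between -1.50 for H2B and -2.35 for H3, and without PC replicate 2 they lay between -2.14 for H2B and -3.73 for H3. In summed TPM the differences were larger, at -3.24 for H2A, -3.05 for H2B and -3.02 for H4.

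**Figure D1:**
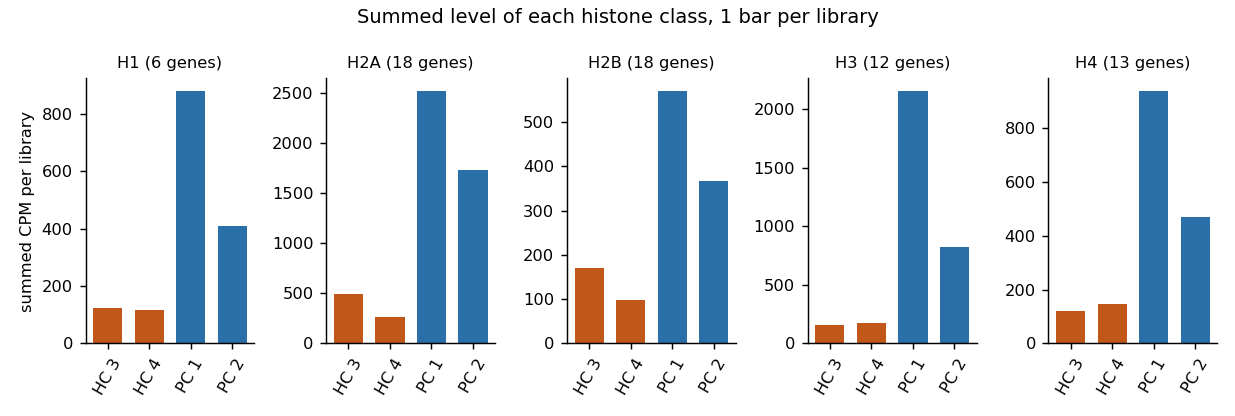
Summed CPM of each histone class, 1 bar per library, HC replicates 3 and 4 left of PC replicates 1 and 2. Each panel has its own scale starting at 0. Both HC bars lie below both PC bars in all 5 classes, and PC replicate 1 is the highest bar in each.

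The PC replicates differed in nearly all members. PC replicate 1 was above PC replicate 2 in 57 of the 62 members tested, and in 50.3% of all 16607 genes tested. HC replicate 4 was above HC replicate 3 in 32 of the 62 members, and in 51.7% of all genes tested. The ratio of PC replicate 1 to PC replicate 2 in summed CPM ranged from 1.45 for H2A to 2.61 for H3. Of the markers of hypertrophic cells, Col10a1 and Spp1, which encodes osteopontin, had the opposite order in PC, and the others are not given here. Col10a1 had 109 CPM in replicate 1 and 876 in replicate 2, and Spp1 19.3 and 280.4.

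H2A held the largest share of the members' TPM, at 61.1% and 46.9% in HC and 49.1% and 57.7% in PC. H3 held 11.6% and 20.4% in HC, against 25.6% and 17.8% in PC. H4 held 10.2% and 16.4% in HC, against 11.8% and 10.3% in PC, and H2B 12.8% and 11.6% in HC, against 10.2% and 11.1% in PC. H1 held 4.27% and 4.71% in HC, against 3.29% and 3.14% in PC. H1 and H2B had slightly higher shares in both HC libraries than in both PC libraries, while the shares of H2A, H3 and H4 overlapped between groups. As shares of the estimated counts this differed for 2 classes: H1, at 11.7% and 14.45% in HC and 12.4% and 10.7% in PC, overlapped, and H3, at 14.485% and 21.5% in HC, against 30.5% and 21.7% in PC, was lower in both HC libraries.

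Tested gene by gene, the members were lower or not distinguishable. A filter on low counts left 62 of 67 members. In edgeR's quasi-likelihood test with Benjamini-Hochberg adjustment over all genes, 21 of the 62 fell in HC and none rose, against 1.96% of all genes tested that fell and 2.75% that rose. At an unadjusted p under 0.05, 48 members were lower and 1 was higher, against 14.4% and 12.7% of all genes tested. Both HC libraries lay below both PC libraries for 56 members, against 33.2% of all genes tested, and above them for 2. The median log2 fold change of the 62 members was -2.89, against -0.04 for all genes tested. By class, 1 of 5 H1 members fell, 2 of 16 of H2A, 5 of 16 of H2B, 8 of 12 of H3 and 5 of 13 of H4, and whether these proportions differ was not tested.

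The calls stand close to the threshold. The smallest adjusted p of any gene was 0.0359, and with library size as the only scaling, with protein-coding transcripts alone, or with limma-trend on log2 TPM, 0 members passed and 0 genes of the whole table did. At an unadjusted p under 0.05 the members lower in HC numbered 48, 45 and 53 under those settings (53 at both pseudocounts of limma), against 17.6%, 13.5%, and 15.9% or 16.3% of all genes tested. DESeq2 called 45 members lower, against 8.44% of all genes. With 1 library left out at a time, leaving out HC replicate 3 gave 52 members that fell, and HC replicate 4 gave 51, while 15.2% and 20.7% of all genes then fell too. Leaving out PC replicate 1 gave 21 members, against 1.41% of all genes, and PC replicate 2 gave 45, against 2.98%. The median of the members stayed between -2.33 and -3.81 in all settings in which the members were fitted singly.

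**Figure D2:**
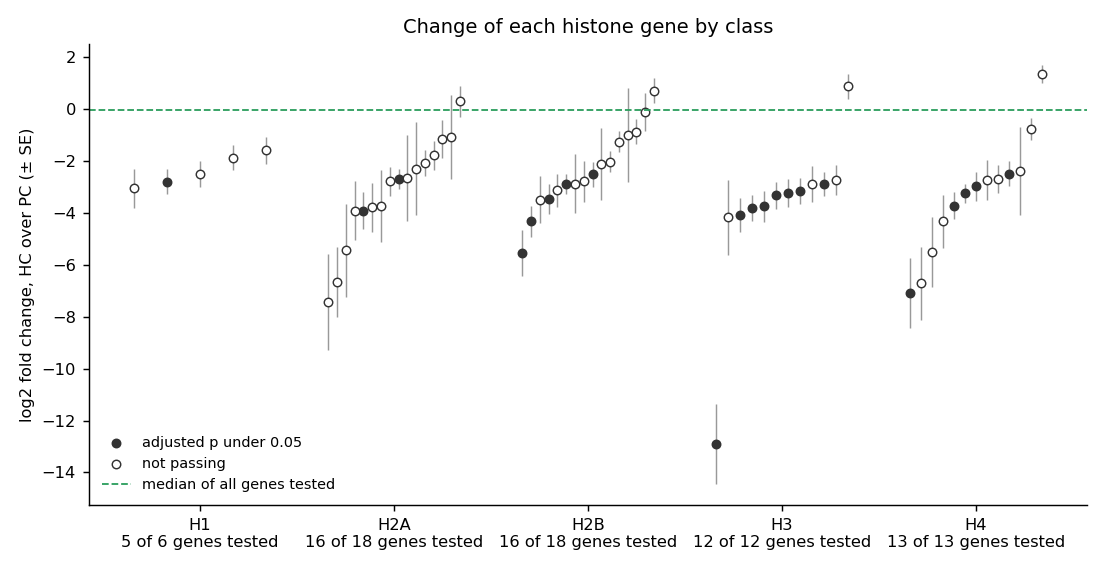
Log2 fold change of HC over PC for each histone gene tested, by class and sorted within the class, with the standard error (SE) as a bar. Filled points passed the adjusted p of 0.05. In all, 58 of the 62 points lie below 0, and 4 lie above it, 1 each in H2A, H2B, H3 and H4.

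Among the linker histones, the 3 genes with the highest levels were Hist1h1e, Hist1h1a and Hist1h1c, which encode somatic subtypes of H1. Hist1h1e had 16.7 and 34 TPM in HC, against 359 and 140.4 in PC. It fell, with a log2 fold change of -2.82 (SE 0.48, adjusted p = 0.0399 by edgeR). It overlaps the transcripts of Hist1h2be on the same strand, and 24.5% of its 31-base words occur there too. Hist1h1a had 42.7 and 28.7 TPM in HC, against 264 and 161 in PC, and Hist1h1c had 12.7 and 20.4 TPM in HC, against 110.4 and 35.5 in PC. Neither group overlapped the other for these genes, but neither gene passed (adjusted p = 0.0821 and 0.114 by edgeR). Hist1h1b and Hist1h1d also had both HC libraries below both PC libraries without passing. Hist1h1t, the testis form, was not tested: its only counts were 0.262 CPM in PC replicate 1.

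Among the H2A genes, 3 held most of the class: Hist1h2ao, Hist1h2ak and Hist1h2ap made up 81.2% and 74.9% of its TPM in HC and 79.3% and 86.0% in PC. Hist1h2ak had 257 and 306 TPM in HC, against 3958 and 2069 in PC. It fell by 2.70 on the log2 scale (SE 0.39, adjusted p = 0.0361 by edgeR). Hist1h2ak shares 59.8% of its words with Hist1h2ae, and 30.0% are its own. Hist1h2af, at 13.8 and 9.05 TPM in HC and 477 and 140 in PC, was the other H2A gene that fell (-3.92, SE 0.72, adjusted p = 0.0468 by edgeR). It shares 85.9% of its words with Hist1h2ad.

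The near-identical genes Hist1h2ao and Hist1h2ap show how far a single copy can be trusted. Hist1h2ao had 636 TPM in replicate 3 of HC but 9.39 in replicate 4, against 4462 and 3651 in PC. Hist1h2ap had 0.717 TPM in replicate 3 of HC but 428 in replicate 4, against 2049 and 632 in PC. In HC the 2 genes traded places, and 93.8% of the words of the one and 93.4% of the other are shared. Neither passed alone (adjusted p = 0.358 and 0.46 by edgeR). Summed, they had 285 and 119 CPM in HC, against 1342 and 1069.8 in PC, without overlap. The Hist2 copies Hist2h2aa1 and Hist2h2aa2 also split unevenly, without trading places. No word of Hist2h2aa2 is its own, and it was the higher copy in both HC libraries, at 137 and 100.4 TPM, where Hist2h2aa1 had 0 and 85.3. The pair summed to 69.6 and 61.5 CPM in HC, against 305 and 189 in PC.

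**Figure D3:**
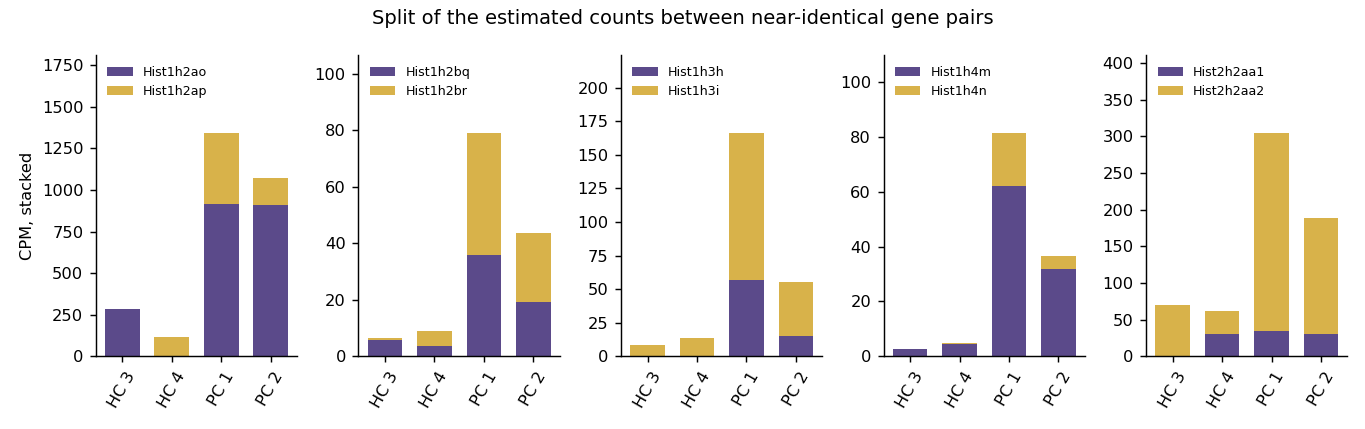
CPM of the 5 pairs of members that are each other's closest copy and share at least 80% of their 31-base words, stacked within a library, HC left of PC. The split within a bar moves between libraries, most of all for Hist1h2ao and Hist1h2ap in HC, while the summed height is lower in both HC libraries than in both PC libraries for all 5 pairs.

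H2B was spread over more genes: its top 3, Hist2h2bb, Hist1h2bb and Hist1h2bk, made up 42.5% and 38.5% of the class TPM in HC and 49.7% and 46.7% in PC. Hist1h2bb had 4.71 and 19.0 TPM in HC, against 468 and 208 in PC. It fell by 4.33 on the log2 scale (SE 0.59, adjusted p = 0.0359 by edgeR). Hist2h2bb had 69.7 and 67.3 TPM in HC, against 617 and 333 in PC, and 92.0% of its words are its own. It did not pass (-2.03, SE 0.41, adjusted p = 0.0537 by edgeR), nor did Hist1h2bk, at 23.9 and 8.01 TPM in HC and 279.8 and 122 in PC (-2.79, SE 0.79, adjusted p = 0.0961 by edgeR). In none of these 3 genes did the groups overlap.

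A further 4 H2B genes fell. Hist1h2bg had 0.157 and 2.65 TPM in HC, against 104 and 70.9 in PC (-5.57, SE 0.89). Hist1h2bn had 12.6 and 18.1 TPM in HC, against 214 and 153 in PC (-2.91, SE 0.38), and Hist1h2bl 3.54 and 5.90 TPM in HC, against 110.1 and 56.1 in PC (-3.47, SE 0.57). In all 3 genes the groups were far from overlapping. Hist1h2bq, the last, had 4.03 and 19.9 TPM in HC, against 218 and 93.8 in PC (-2.53, SE 0.49, adjusted p = 0.0486 by edgeR).

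Hist1h2bq and its copy Hist1h2br are among the members with more than 1 annotated transcript. Their short transcripts, of 381 bases each, had equal estimated counts in every library: 0 and 84.0 in HC, and 1023 and 612 in PC. Nearly all words of Hist1h2bq occur in Hist1h2br, so these equal counts are not separate measurements of the 2 genes. The longer transcripts of Hist1h2bq had 70.5 and 1.8 counts in HC, against 215 and 134 in PC, and those of Hist1h2br had 8.3 and 30.1 in HC, against 461 and 327 in PC. HC replicate 3 was thus the library with no count in the short form of either gene. For Hist1h2be and Hist2h3c1 only forms longer than 1000 bases are annotated, and for Hist1h2bp only shorter ones, so the 2 kinds could be set side by side in 2 genes alone.

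H3 was the class with the most members that fell, 8 of 12. Hist2h3b had 87.0 and 173 TPM in HC, against 2100.3 and 819.9 in PC (-2.89, SE 0.46, adjusted p = 0.0375 by edgeR). Hist2h3c2 had 30.5 and 47.9 TPM in HC, against 1218 and 345 in PC (-3.75, SE 0.60, adjusted p = 0.038 by edgeR). Both lie in the Hist2 cluster, and 80.6% of the words of Hist2h3b occur in Hist2h3c2. Hist1h3i had 23.8 and 63.4 TPM in HC, against 686 and 203 in PC, and did not pass (-2.74, SE 0.57, adjusted p = 0.0557 by edgeR). None of the 3 overlapped between groups.

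Of the other H3 genes, Hist1h3c had 10.4 and 19.8 TPM in HC, against 624 and 156 in PC (-4.10, SE 0.65). Hist1h3g had 12.7 and 20.5 TPM in HC, against 533 and 194 in PC (-3.83, SE 0.50), and Hist1h3b 13.7 and 39.7 TPM in HC, against 541 and 221 in PC (-3.33, SE 0.52). All 3 fell without overlap, as did Hist1h3d and Hist1h3e. Hist1h3h had no whole count in HC and 2533 in PC. No lower bound on its fold is given, because its reads may have been assigned to a copy. The closest copy of Hist1h3h is Hist1h3i, with 85.3% of the words in common, and only 5.8% are its own. Together the pair had 8.58 and 13.6 CPM in HC, against 166 and 55.0 in PC, 8.84-fold higher in PC on average on the log scale.

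Among the H4 genes, Hist1h4b had 28.8 and 41.7 TPM in HC, against 718 and 368 in PC (-3.26, SE 0.37, adjusted p = 0.0359 by edgeR). Hist1h4d had 17.2 and 59.0 TPM in HC, against 579 and 234 in PC (-2.99, SE 0.57, adjusted p = 0.0479 by edgeR), with 85.3% of its words its own. Hist1h4k, the third by level, had 73.1 and 138 TPM in HC, against 427 and 169 in PC. It did not pass (-0.78, SE 0.42, adjusted p = 0.303 by edgeR), although both HC libraries were below both PC libraries. Its transcript is annotated with 312 bases and no part after the stop codon, and 73.0% of its words are shared with Hist1h4a.

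Hist1h4m had 7.48 and 21.2 TPM in HC, against 404 and 168 in PC (-3.73, SE 0.52), and fell. Only 8.3% of its words are its own, and 91.7% are shared with Hist1h4n. Hist2h4, with 97.7% words of its own, had 6.52 and 21.9 TPM in HC, against 139.6 and 73.5 in PC (-2.50, SE 0.49, adjusted p = 0.0498 by edgeR). Hist1h4i also fell, on 0 and 1.2 estimated counts in HC against 205 and 109 in PC. In all 3 the HC libraries were below the PC libraries. The call of Hist2h4 ended with DESeq2's size factors, and those of Hist1h2bq, Hist1h4d, Hist1h4i and Hist2h4 with a term for effective transcript length.

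**Figure D4:**
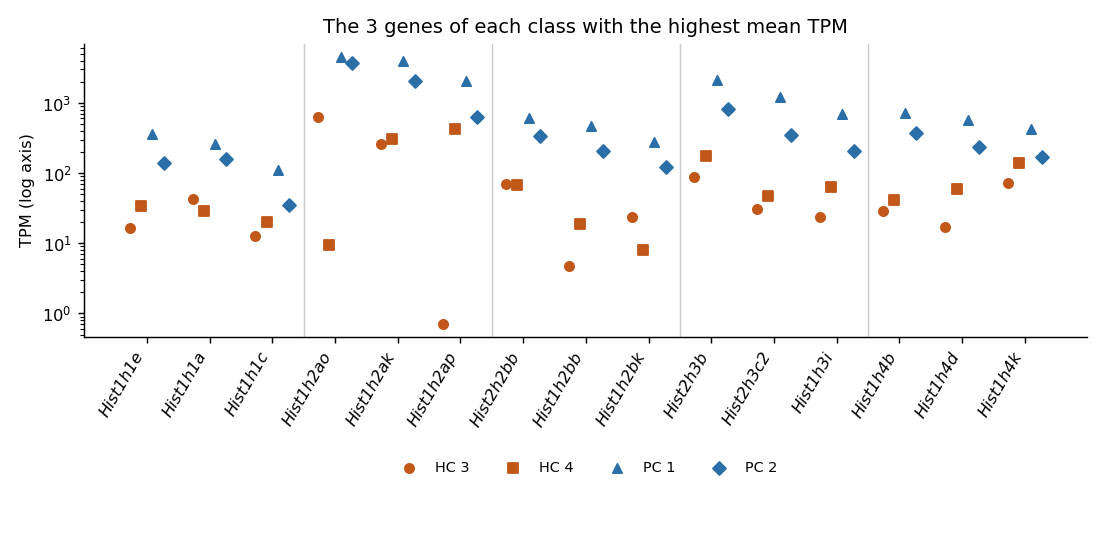
TPM (log axis) of the 3 genes of each class with the highest mean TPM, 1 point per library, HC replicates (orange) left of PC replicates (blue). The HC points lie below the PC points for all 15 genes, by the narrowest margin for Hist1h4k, and the HC points are widest apart for Hist1h2ao and Hist1h2ap.

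In 6 members tested, the HC libraries were not both below the PC libraries in CPM. Hist4h4, the lone gene of its cluster, had 38.3 and 26.2 CPM in HC, against 12.4 and 13.3 in PC, and 11.1 and 11.9 TPM in HC, against 6.88 and 6.43 in PC. Both HC libraries were above both PC libraries on either scale, but the gene did not pass (1.33, SE 0.36, adjusted p = 0.0878 by edgeR). DESeq2 called it, and its adjusted p ranged from 0.00588 to 0.633 over the alternatives, with a positive fold change in each. Its protein is the same as that of the H4 genes that fell, and 87.6% of its words are its own.

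Hist2h3c1 had 30.5 and 14.9 CPM in HC, against 14.4 and 10.8 in PC (0.85, SE 0.46, adjusted p = 0.303 by edgeR), and its TPM overlapped between groups. Its annotated product is longer than the other H3 proteins, at 181 residues against 136. Hist1h2bc had 90.4 and 43.3 CPM in HC, against 53.6 and 29.3 in PC (0.69, SE 0.48, adjusted p = 0.418 by edgeR). Hist3h2a had 22.7 and 8.47 CPM in HC, against 16.2 and 9.37 in PC (0.28, SE 0.59), shares 32.1% of its words with the overlapping gene Trim17, and its sign turned with library size as the only scaling (-0.07), with limma (-0.31 and -0.34), without PC replicate 2 (-0.09) and without HC replicate 3 (-0.63). Hist2h2be had 2.76 and 2.35 CPM in HC, against 2.44 and 3.15 in PC (-0.13, SE 0.74). Hist1h2bp had 3.28 and 0 CPM in HC, against 1.78 and 4.61 in PC (-1.003, SE 1.81, adjusted p = 0.77 by edgeR). The last 4 overlapped between groups in CPM. In TPM, both HC libraries were below both PC libraries for Hist2h2be, at 0.880 and 1.17 in HC and 1.49 and 1.67 in PC, and for Hist1h2bp, at 7.57 and 0 in HC and 8.15 and 18.2 in PC.

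Of these 6 genes, set apart only after their values were seen, 5 have long annotated parts after the stop codon, from 742 bases in Hist1h2bc to 2515 in Hist4h4, while Hist1h2bp has 81 bases there. In all, 20 members have 250 or more bases there, these 5 among them. Of the 20, 7 fell, and 15, all but the 5, had both HC libraries below both PC libraries. The 5 were set apart for lacking that order, so the count and median of this bin are not independent of the choice. Of the 30 members with 10 to under 250 bases, 8 of 27 tested fell and 26 had both HC libraries below both PC libraries. Of the 17 with fewer than 10 bases, 6 of 15 tested fell and all 15 had both HC libraries below both PC libraries. The median log2 fold change was -2.64, -2.88 and -3.47 in the same order. Over all genes tested, 1.96% fell and 33.2% had both HC libraries below both PC libraries. Hist1h2bc and Hist2h2be are annotated without a stem-loop of the kind searched for. Hist4h4, Hist2h3c1 and Hist3h2a have one upstream of their annotated end, and Hist1h2bp ends at one.

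Many H2A and H2B genes stand back to back and share the stretch between their starts. There were 12 such pairs within 1000 bases, with gaps from 175 to 305 bases. Hist1h2ak and Hist1h2bn, 295 bases apart (chr13:21753828-21754122), fell by 2.70 and 2.91 on the log2 scale. Hist1h2ao and Hist1h2bq, 267 bases apart, had -2.67 and -2.53. The value of Hist1h2ao is uncertain (SE 1.65), and 93.8% of its words are shared with Hist1h2ap. In other pairs the partners differed: Hist1h2ac had -3.93 and Hist1h2bc 0.69 across 250 bases, and Hist2h2ac had -2.80 and Hist2h2be -0.13 across 238 bases. Hist1h2ae had -1.80 and Hist1h2bg -5.57 across 175 bases, the reverse order. Of the 10 pairs with both partners tested, 6 had partners more than 2 apart on the log2 scale, a limit set after the values were seen. The H2A partner was the lower one in 5 of these. Among these lower partners, Hist1h2ai, Hist1h2ah and Hist1h2an share 84.8%, 88.0% and 81.5% of their words with their closest copy. Their estimated counts in HC were 1.8 and 0, 0 and 1.7, and 0 and 46.2. Hist1h2ac and Hist2h2ac have 86.4% and 47.3% of words of their own. How far the assignment of reads to copies set these differences was not tested. A stem-loop of the kind searched for is annotated in the lower partner alone in 2 of the 6 pairs. It is in the higher partner alone in 2, in both in 1 and in neither in 1.

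The members that were not tested had few counts. Hist1h2ba had none in any library, and Hist1h2aa, which like Hist1h2ba is known from testis, had 0.0813 CPM in HC replicate 3 alone. Hist1h2ad had 0 CPM in both HC libraries, against 1.09 and 0.247 in PC, and Hist3h2ba had 0 in both HC libraries, against 0.116 and 0.130 in PC. No lower bound on the fold of Hist1h2ad is given: 31.7% of its words are its own, and 60.9% are shared with Hist1h2ah.

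Other genes of histone supply were taken from lists chosen with earlier results known, and Npat, Slbp, Lsm11, H3f3a, H3f3b, H1f0 and H2afx are named for their roles. Of 14 regulators of histone gene transcription, 1 fell and none rose (median -0.30), against 1.96% of all genes tested that fell and 2.75% that rose. The one was E2f1, a transcription factor of the step into S phase, with 5.06 and 7.46 CPM in HC, against 43.1 and 46.0 in PC (-2.83, SE 0.37, adjusted p = 0.0359 by edgeR). Npat, the coactivator of histone genes in S phase, had 135 and 117 CPM in HC, against 99.3 and 128 in PC, and the groups overlapped.

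Of 31 genes for histone mRNA 3′ end processing and decay, none passed (median -0.63). Both HC libraries lay below both PC libraries for 19, against 33.2% of all genes tested. The 2 with the highest TPM were Srrt, with 130.4 and 105 CPM in HC and 132 and 129 in PC, and Snrpg, with 117 and 25.7 CPM in HC and 42.4 and 67.9 in PC, and both overlapped between groups. Slbp, which binds the stem-loop, had 50.3 and 39.1 CPM in HC, against 62.8 and 63.0 in PC (-0.49, SE 0.29, adjusted p = 0.342 by edgeR). Lsm11, a subunit of the U7 particle that guides the cut, had 0 and 0.805 CPM in HC, against 7.63 and 5.12 in PC (-3.86, SE 1.39, adjusted p = 0.147 by edgeR). Neither overlapped between groups.

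Of 20 histone chaperones, most of them tied to replication, 1 fell (median -1.05), against 1.96% of all genes tested. This was Hjurp, which deposits the centromeric H3 form outside DNA replication, with 39.9 and 59.1 CPM in HC, against 224 and 167 in PC (-1.98, SE 0.35, adjusted p = 0.0432 by edgeR). Of 13 genes for deposition outside replication, none passed (median -0.18). Its 2 genes with the highest TPM were Anp32e, which removes the H2A form H2A.Z from chromatin, with 251 and 70.3 CPM in HC and 140.1 and 223 in PC, and Atrx, a remodeller that works with the chaperone Daxx, with 574 and 477 CPM in HC and 373 and 529.9 in PC. Both overlapped between groups. Of 11 replacement and variant histones tested, 2 fell, against 1.96% of all genes tested. Cenpa, the centromeric H3 form, had 9.5 and 8.96 CPM in HC, against 48.9 and 40.0 in PC (-2.27, SE 0.33, adjusted p = 0.0361 by edgeR). H1fx, a linker histone outside the clusters, had 1.38 and 2.48 CPM in HC, against 21.1 and 14.3 in PC (-3.18, SE 0.54, adjusted p = 0.0406 by edgeR).

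The replacement and variant histones named for their roles did not share 1 direction. H3f3a, which encodes the replacement form of H3, had 377 and 197 CPM in HC, against 153 and 167 in PC, both HC libraries above both PC libraries (0.84, SE 0.39, adjusted p = 0.234 by edgeR). H3f3b, which encodes the same protein, had 175 and 295 CPM in HC, against 278 and 285 in PC, and H1f0, the linker histone of non-dividing cells, 204 and 251 CPM in HC, against 265 and 201 in PC. Both overlapped between groups. H2afx had 8.47 and 3.57 CPM in HC, against 95.8 and 32.9 in PC (-3.44, SE 0.70, adjusted p = 0.0534 by edgeR), and from 20.1% to 33.1% of the words of 12 H2A members occur in it too.

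Of 48 DNA replication genes, 8 fell and none rose (median -1.32), against 1.96% of all genes tested that fell and 2.75% that rose. Both HC libraries lay below both PC libraries for 43, against 33.2% of all genes tested. Pold1, a catalytic subunit of DNA polymerase delta, had 2.76 and 1.76 CPM in HC, against 37.9 and 22.9 in PC (-3.76, SE 0.50, adjusted p = 0.0359 by edgeR). Cdt1, which loads the replicative helicase, had 1.46 and 1.17 CPM in HC, against 26.2 and 14.7 in PC (-3.96, SE 0.54, adjusted p = 0.0359 by edgeR). Cdca7 and Tipin fell too, by 4.47 and 2.26 on the log2 scale.

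The libraries did not keep the same order in histones and in replication genes. The replication list summed to 1669 and 811.7 CPM in HC, against 3620.4 and 4103 in PC. The 67 histone genes were thus at 0.635 and 0.986 of that sum in HC replicates 3 and 4, against 1.95 and 0.929 in PC replicates 1 and 2. HC replicate 4 and PC replicate 2 had nearly the same ratio, PC replicate 1 the highest and HC replicate 3 the lowest, so the groups overlapped. This ratio was formed after the values were seen and has no test.

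**Figure D5:**
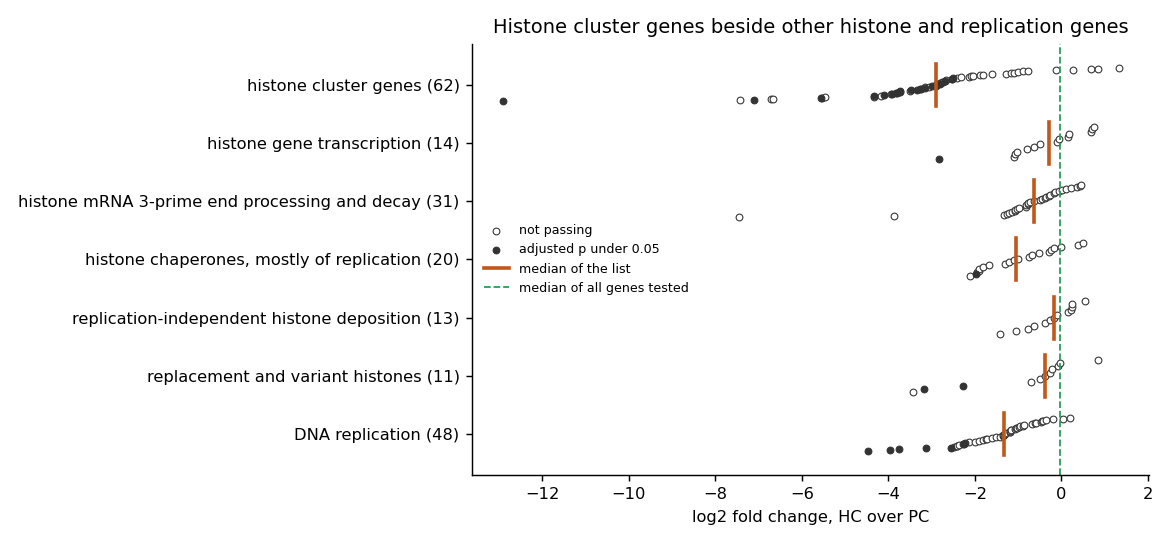
Log2 fold change of HC over PC for each gene tested, for the histone cluster genes and 6 other lists, with the number tested in brackets. Filled points passed the adjusted p of 0.05, and orange bars mark each list's median. The median is -2.89 for the histone cluster genes, -1.32 for the DNA replication genes and -0.18 for the genes of deposition outside replication, against -0.04 for all genes tested (dashed line).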

How the data were processed

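The authors' tools were Trimmomatic 0.36 and kallisto 0.43.1, which assigns reads to transcripts by likelihood, with the mouse build mm10, per the submitters' processing notes. No strand setting is stated there, so reads of overlapping antisense genes cannot be told apart. The deposited tables hold, per the file headers, an estimated count and a TPM value for each of 109282 transcripts, with the transcript's length and effective length. Of these, 107987 matched the GENCODE M21 annotation (GRCm38). Unmatched transcripts held 0.362% to 0.534% of the counts and were left out.

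Estimated counts and TPM were summed per gene. The rounded counts of the 16607 genes kept by filterByExpr were scaled by TMM (factors 0.812 and 1.021 for HC, 1.14 and 1.058 for PC) and tested for HC against PC with edgeR 4.0.16 (quasi-likelihood F-test, Benjamini-Hochberg over all genes, threshold 0.05). "Fell" and "rose" are used only of genes past that threshold. CPM carries the TMM factors. The log2 fold change in brackets is HC over PC, and its SE comes from the coefficient and the F statistic. R 4.3.3, DESeq2 1.42.0, limma 3.58.1 and Python 3.11.15 were used, and the edgeR step was tested on simulated counts. Shared sequence was measured as the share of a transcript's 31-base words that occur in another gene's transcripts.

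Named are the 3 members of each class with the highest mean TPM and up to 4 others that passed, by smallest p. Of each other list, up to 4 that passed are named, or else the 2 with the highest TPM. The members and lists were chosen with earlier results of these data known. Reads copied by PCR are not separate molecules, so the estimated counts are not counts of molecules.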

Additional observations from a re-analysis of the deposited data

How the results depend on the processing

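The count of 21 members lower in HC became 0 with library size alone, 0 with protein-coding transcripts only, 0 with limma-trend at either pseudocount (1 and 0.1), 45 with the DESeq2 Wald test (8.44% of all genes were lower there, against 1.96%) and 44 without a filter on low counts (4.0%). With members of identical protein summed it was 11 of 26 features (1.94%). It was 20 with DESeq2 size factors (1.82%) and 17 with an effective length offset (0.988%), all of them among the 21. The cause of these changes was not tested. Leaving out 1 library at a time gave 21 to 52, and the genes called in the whole table then numbered from 636 to 7106, against 782: 17 of the 21 were kept without PC replicate 1 (lost were Hist1h2bl, Hist1h2bq, Hist1h3d and Hist1h4i), 20 without PC replicate 2 (lost was Hist1h4i) and all 21 without either HC replicate. No member was higher in HC with edgeR on all libraries (1 at an unadjusted p under 0.05), 1, Hist4h4, was with DESeq2 (9.63% of all genes were higher), and 0 to 2 were with 1 library left out (Hist4h4 without HC replicate 3 or 4, and Hist2h3c1 without HC replicate 4; 13.1% of all genes were higher without HC replicate 3 and 18.3% without HC replicate 4). A lone sample is there assumed to vary like the other group. Class sums kept their direction in every setting. As TPM sums the log2 differences were -3.241 for H2A, -3.054 for H2B and -3.02 for H4, beyond 1 replicate SD from the CPM values, while the TPM sums of H1 and H3, both other scalings and protein-coding transcripts alone stayed within it. With 2 libraries a group, leaving 1 out cannot move a sum beyond that SD, so it says nothing of stability here. No member named by rule changed sign. Library size as the only scaling shifted the median of all genes to -0.29, against -0.04. No paired analysis was possible because the HC and PC libraries share no replicate number. The total counts limit what can be seen of the 5 members that were not tested, and the reads of near-identical copies limit single genes more than class sums.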

Other observations

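Members with fewer words of their own were less alike between the HC replicates at the extreme. Among the 21 tested members with over 60% of words of their own, the absolute log2 ratio of HC replicate 3 to HC replicate 4 was 0.805 at the median and 1.984 at most. Among the 19 members with up to 20% it was 0.804 at the median and 8.254 at most. The members with over 60% had a median log2 fold change of -2.50, and 5 of 21 fell, against -3.25 and 8 of 19 for those with up to 20%. These bins were set after the data were seen and have no test. Of all genes tested, 1.96% fell.

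By cluster, the 54 members of Hist1 summed to 782 and 562 CPM in HC, against 5316 and 2989 in PC, and the 10 members of Hist2 to 217 and 203 CPM in HC, against 1720.2 and 799 in PC. Neither cluster overlapped between groups. Of the 50 Hist1 members tested 18 fell, and of the 10 Hist2 members 3 fell, against 1.96% of all genes tested. Hist3 and Hist4 did not share this: Hist3 summed to 22.7 and 8.47 CPM in HC, against 16.3 and 9.5 in PC, and overlapped between groups.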
